A study of Mus musculus with 4 samples.

Results

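Of the open chromatin found in every library of this ATAC-seq series, 1028 regions were annotated by the authors as intergenic and within 50 kb of a transcription start site, and these are described here. ATAC-seq cuts accessible DNA with a transposase, and the authors called broad peaks in each of the 4 libraries separately. A peak was counted as strong when its −log10 q, the peak caller's significance, was 5 or more, and strong peaks that overlapped by at least 1 bp were merged into 21240 regions. Of these, 10390 held a strong peak in all 4 libraries, and the 1028 made up 9.89% of that number (95% Wilson interval 9.33 to 10.5%). For the 1028, the strongest peak was annotated as intergenic and lay at most 50 kb from the start site given with it. The other regions strong in all 4 libraries were annotated to promoters (6042), introns (1681), exons (1022), intergenic DNA beyond 50 kb (366) or transcript ends (251). The regions were therefore chosen on the peak significance, the annotation and the distance, and values of these are given as a description.

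The cells were LbT2 (LβT2; the sample titles have LbT2b), an established mouse line derived from the gonadotrope, the pituitary cell that makes the gonadotropins. After a night without serum, they received either vehicle or 1 nM activin A for 6 h, with 2 libraries per treatment and 50000 cells in each transposase reaction. Activin A is a ligand of the TGFβ family that stimulates Fshb, which encodes the β subunit specific to follicle-stimulating hormone, and the study concerned Fshb and its enhancers. The labels do not say whether the 2 libraries of a group came from separate cultures, so p-values measure only the spread between these libraries. Depth ranged from 172146474 to 224226184 high-quality autosomal reads per library. Of 6 gonadotrope marker genes, Lhb, Cga, Gnrhr and Nr5a1 had a peak within 1 kb of the start site in all 4 libraries, Foxl2 had it in 3 and Fshb in none. Among hormone genes of other pituitary lineages, Gh and Pomc had such a peak in 2 libraries, and Prl and Tshb in none.

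Open chromatin between genes can hold enhancers, which bind transcription factors and raise transcription from a promoter at some distance, or insulators, or promoters of transcripts that a given gene annotation lacks. Enhancers often act on a gene other than the nearest, so a nearest gene is a label of position and not of function. Promoters tend to be open in many cell types, while the open intergenic regions of a cell vary more with its type.

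Some of these intervals lay in genes of RefSeq, although the authors' annotation placed them between genes. The centre of 246 regions (23.9%) was inside a RefSeq protein-coding or long noncoding RNA gene, against 18.3% of intergenic regions beyond 50 kb (67 of 366). In the RefSeq table of GRCm38.p6, 82 of the 1028 regions (7.98%, 95% Wilson interval 6.47 to 9.79%) held a gene start, 45 of them the start of a protein-coding gene, and 24 the start of the gene that the annotation named as nearest. The share was 5.46% for intergenic regions beyond 50 kb (20 of 366) and 29.7% for intronic regions (499 of 1681). The 250 bases before the start are printed for 6 of these genes, because they show what kind of sequence such a region contains. They were read from RefSeq with build GRCm38.p6. Capitals mark the GC box (GGGCGG) and the CCAAT box (CCAAT) on either strand, which are common promoter elements. The start of the long noncoding gene Gm19497 lay in the strongest region next to Btg2. Zfp78 and Zfp983 encode zinc finger proteins, Tyk2 a kinase of cytokine receptors and Cpeb4 a protein that binds mRNAs. The noncoding gene 6430584L05Rik started in the region next to Ghrhr.
Gm19497, chr1:134060948-134061197, minus strand: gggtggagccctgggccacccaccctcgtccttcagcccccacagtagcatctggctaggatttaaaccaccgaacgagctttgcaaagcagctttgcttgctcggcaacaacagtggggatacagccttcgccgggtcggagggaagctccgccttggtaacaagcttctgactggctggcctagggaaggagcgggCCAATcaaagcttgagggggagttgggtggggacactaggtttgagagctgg
Zfp78, chr7:6363058-6363307, plus strand: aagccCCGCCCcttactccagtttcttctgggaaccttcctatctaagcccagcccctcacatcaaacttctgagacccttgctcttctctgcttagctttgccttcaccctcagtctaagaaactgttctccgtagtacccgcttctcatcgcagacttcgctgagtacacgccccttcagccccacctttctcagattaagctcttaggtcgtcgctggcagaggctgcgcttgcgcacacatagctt
Zfp983, chr17:21650361-21650610, plus strand: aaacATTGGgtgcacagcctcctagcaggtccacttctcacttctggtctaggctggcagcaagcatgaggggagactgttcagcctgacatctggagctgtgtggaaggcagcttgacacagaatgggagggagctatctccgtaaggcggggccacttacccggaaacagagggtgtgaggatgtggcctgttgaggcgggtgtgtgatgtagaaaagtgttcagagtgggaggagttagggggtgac
Tyk2, chr9:21131276-21131525, minus strand: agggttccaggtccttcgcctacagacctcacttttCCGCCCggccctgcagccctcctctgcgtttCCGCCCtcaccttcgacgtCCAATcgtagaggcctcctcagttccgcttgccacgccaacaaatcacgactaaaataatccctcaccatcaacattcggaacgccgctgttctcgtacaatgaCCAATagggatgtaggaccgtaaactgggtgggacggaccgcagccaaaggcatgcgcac
Cpeb4, chr11:31870690-31870939, plus strand: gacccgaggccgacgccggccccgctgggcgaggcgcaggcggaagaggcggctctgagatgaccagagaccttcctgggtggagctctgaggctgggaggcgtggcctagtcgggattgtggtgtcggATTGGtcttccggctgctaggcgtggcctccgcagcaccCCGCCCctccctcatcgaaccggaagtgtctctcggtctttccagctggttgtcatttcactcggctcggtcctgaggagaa
6430584L05Rik, chr6:55396637-55396886, plus strand: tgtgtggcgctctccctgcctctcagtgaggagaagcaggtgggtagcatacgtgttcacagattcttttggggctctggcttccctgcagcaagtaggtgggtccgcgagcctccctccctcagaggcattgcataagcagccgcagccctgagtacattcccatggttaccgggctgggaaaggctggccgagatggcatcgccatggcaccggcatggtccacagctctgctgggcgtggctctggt
Zfp78 had 1 GC box and no CCAAT box in this stretch, Zfp983 had 1 CCAAT box, Tyk2 had 2 of each and Cpeb4 had 1 of each. Gm19497 had 1 CCAAT box and 6430584L05Rik had neither. Over the 85 RefSeq start windows of 300 bases (250 before the start, 50 from it on) that lay whole inside a region, the median G+C content was 57.3% and the median ratio of observed to expected CpG was 0.593. These windows lay in 67 regions, so some shared a region and are not independent. The windows inside strong promoter regions (6243) had 65% and 0.848, and all 32851 windows had 52.7% and 0.384. The windows within the intergenic regions thus stood between the open promoters and all promoters in both measures.

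Motif letters were searched on both strands, each motif on its own even where 2 shared letters. The GC box was in 47.1% of the 85 windows, against 76.8% of windows in strong promoter regions and 35.7% of all windows. The CCAAT box was in 41.2%, 42.7% and 37.4%. The AP-1 letters TGANTCA were in 11.8% of the 85 windows (10 windows), 2.95% of those in strong promoter regions and 7.81% of all. The letters CAAGGTCA, an element bound by the gonadotrope factor SF-1 (the product of Nr5a1), were in 4.71% (4 windows), 0.769% and 1.56%. The core TGACG of the cAMP response element was in 18.8%, 37.4% and 20.8%, and the ETS letters CCGGAAG in 11.8%, 21.3% and 8.86%. The letters CAGACA, bound by SMADs, the factors that activin activates, were in 11.8% (10 windows), 12.8% and 21.0%, and the E-box CACGTG in 7.06%, 10.5% and 7.15%. With 85 windows, some of them in the same region, shares of 4 or 10 windows are imprecise. Of the regions that held a gene start, 10 held that of a gene named Zfp, Zscan or Zkscan, families of zinc finger proteins, which make up 1.31% of all RefSeq start windows.

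Most of the regions lay well away from the start site to which the annotation tied them. The median distance was 13.9 kb and the smallest was 1.01 kb. At most 5 kb separated 189 regions (18.4%) from the start site, 5 to 10 kb separated 218 (21.2%), 10 to 25 kb separated 356 (34.6%) and 25 to 50 kb separated 265 (25.8%). Among all called intergenic peaks within 50 kb, the share at most 5 kb away was 13.0 to 13.5% in the 4 libraries. Of the regions, 627 (61.0%, 95% Wilson interval 58.0 to 63.9%) lay upstream of the start site, beside 59.3 to 59.7% of all called peaks of this kind. Near the start site the upstream share was larger: 149 of the 189 regions at most 5 kb away (78.8%, 72.5 to 84.1%) lay upstream, against 68.5 to 69.0% of all called intergenic peaks at that distance. Beyond 5 kb it was 57.0% (478 of 839). DNA just downstream of a start site usually belongs to the gene and is not annotated as intergenic. This holds for the regions and for all called intergenic peaks alike, and its part in these shares was not tested.

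**Figure D1:**
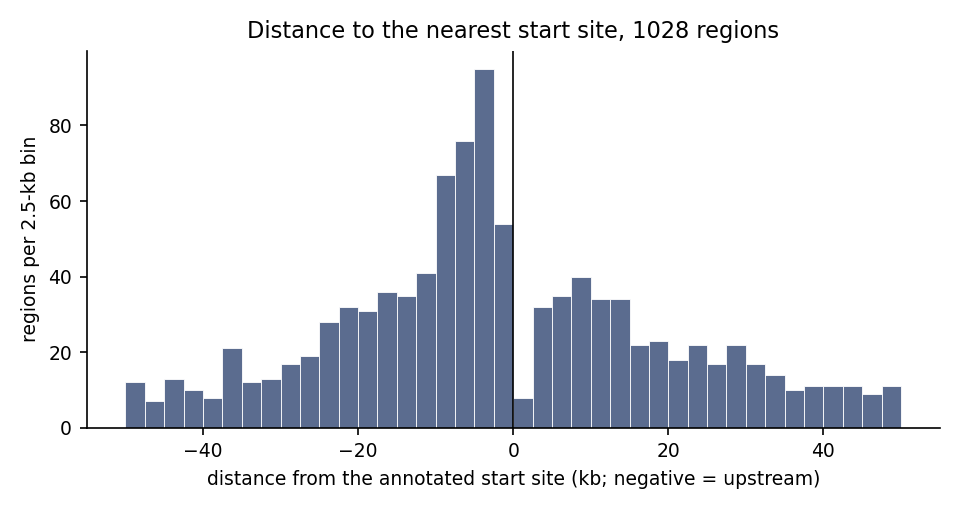
Number of regions per 2.5-kb bin (y axis) by signed distance in kb from the annotated start site (x axis, negative upstream) for the 1028 intergenic regions. The bins next to the start site hold many more upstream than downstream regions, and 149 of the 189 regions within 5 kb lie upstream.

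The regions had 944 different nearest genes, 2.64% of the 35727 genes that the annotations name. Of these genes, 868 were nearest to 1 region, 69 to 2, 6 to 3 and 1 to 4. Nearest genes were protein-coding for 535 regions (52.0%), against 52.8% of all named genes and 45.6% of regions beyond 50 kb. Processed pseudogenes were nearest to 124 regions (12.1%), long intergenic noncoding RNA genes to 114 (11.1%) and microRNA genes to 42 (4.09%). The promoter of the nearest protein-coding gene was itself strong in all 4 libraries for 161 of the 535 regions (30.1%, 95% Wilson interval 26.4 to 34.1%), and 28.1% of all named protein-coding genes (5296 of 18870) had such a promoter. Open intergenic regions were thus about as often next to a gene with a strong promoter as that gene class as a whole. The annotations of the 4 libraries gave the same nearest gene for 1027 of the 1028 regions, and all 4 gave intergenic for 1021.

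Immediate-early genes, which are transcribed within minutes of a stimulus, and their AP-1 relatives were the list with the most genes next to a region. Of 18 such genes, 8 were the nearest gene of at least 1 region (44.4%), against 2.64% of all named genes, with 11 regions between them. The 8 were Fos and Fosb, which encode AP-1 subunits, Egr1 and Egr3, zinc finger factors, Nr4a1 and Nr4a3, orphan nuclear receptors, Btg2, an antiproliferative protein, and Dusp1, a phosphatase that switches off MAP kinases. Fosl1, Fosl2, Jun, Junb, Jund, Atf3, Egr2, Nr4a2, Myc and Ier2 were on the list without a region. Over all 10 lists, 20 of 154 named genes (13.0%) had a region. The lists were chosen with earlier results of these data known, so these shares are a description. The lists were also not drawn at random from the annotation. Their genes differ in the length of the intergenic DNA around them, a difference that was not tested.

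The strongest of these regions was 18.0 kb downstream of the start of Btg2 (ENSMUSG00000020423; chr1:134060708-134061585). Read density is the number of high-quality reads in a peak as called in that library, divided by the peak's length in kb and scaled to 1000000 high-quality reads in the library. On this depth scale the median of all tested regions was itself 0.269 higher on the log2 scale with activin, and the order of the libraries in the densities below includes that shift. Log2 changes are given after centring each library on its median region. Density at the Btg2 region was 8.95 and 7.96 in the vehicle libraries, against 10.3 and 8.72 in those given activin. The activin library with the lower value fell between the vehicle libraries, so the groups overlapped. A further Btg2 region, 11.9 kb downstream (chr1:134066822-134067707), had 6.05 and 4.41 with vehicle against 6.29 and 5.74 with activin. The third lay 4.25 kb upstream (chr1:134082751-134083988), with 7.01 and 6.12 against 7.16 and 7.59. The groups overlapped in the former, and in the latter both activin densities were above both vehicle densities, with a centred log2 change of −0.10. The promoter of Btg2 was strong in all 4 libraries.

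The Nr4a3 region (ENSMUSG00000028341), 1.96 kb upstream at chr4:48042732-48043697, had a density of 8.65 and 7.25 with vehicle against 9.96 and 8.38 with activin. At Fos (ENSMUSG00000021250), the region 11.3 kb downstream (chr12:85485595-85486517) had 6.06 and 5.08 with vehicle against 5.91 and 7.34 with activin. The other Fos region, 19.3 kb upstream (chr12:85454948-85455943), had 4.00 and 3.41 against 4.55 and 3.77. In all 3 the groups overlapped. The Nr4a1 region, 20.4 kb upstream, had 5.67 and 4.84 with vehicle against 6.45 and 5.76 with activin, so both activin densities were above both vehicle densities by a small margin, with a centred log2 change of −0.06. The regions next to Egr1, Fosb, Egr3 and Dusp1 had densities between 2.16 (Egr3, vehicle library 2) and 4.17 (Dusp1, vehicle library 2). The log2 changes of the 11 immediate-early regions lay between −0.23 (Dusp1) and 0.0019 (Fosb), and the smallest unadjusted limma p among them was 0.166. The 10 values below 0 were 0.0445 to 0.269 when libraries were scaled by depth, that is by all their high-quality reads, and not by the median.

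**Figure D2:**
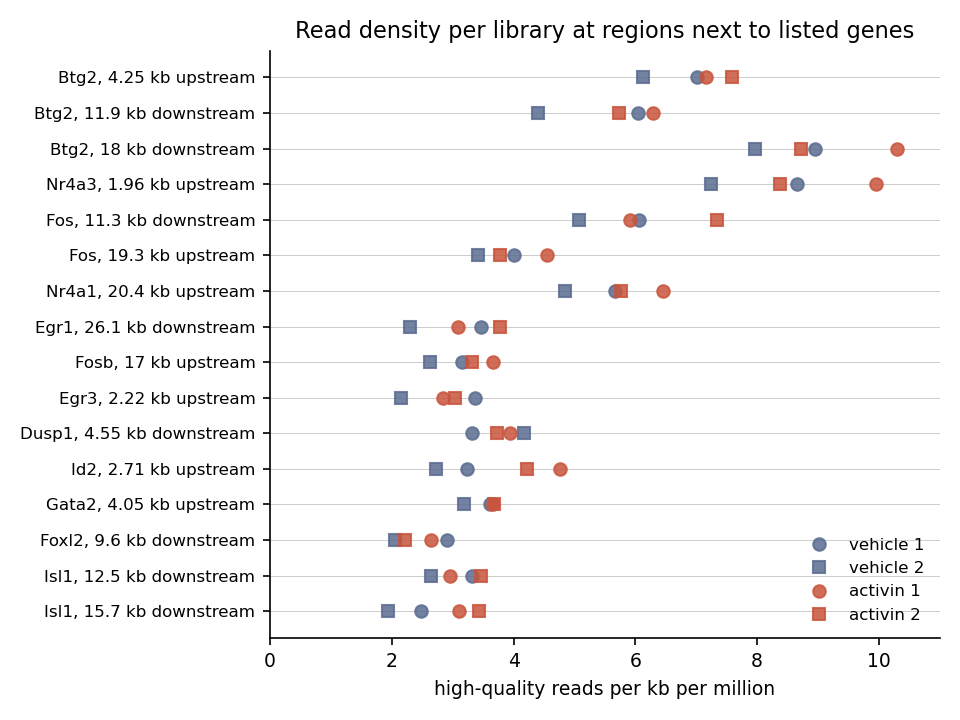
Read density in high-quality reads per kb, scaled for depth (x axis) in each vehicle and activin library for regions next to listed genes (y axis, with the distance to the start site); circles are library 1 and squares library 2 of each group. The Btg2 region 18.0 kb downstream and the Nr4a3 region lie highest. Both activin densities lie above both vehicle densities at Id2, Nr4a1, Fosb, Gata2, the upstream Btg2 region and the Isl1 region 15.7 kb downstream.

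The gonadotrope list had 4 of 10 genes next to a region (40%, against 2.64% of all named genes): Egr1, Foxl2, Gata2 and Nr0b1. Egr1 was also counted among the 8 immediate-early genes, so the shares of these lists are not independent. Foxl2 encodes a forkhead factor of the gonadotrope that acts with SMADs at Fshb. Its region, 9.60 kb downstream at chr9:98964893-98965809, had a density of 2.90 and 2.06 with vehicle against 2.65 and 2.21 with activin, with overlapping groups. The centred log2 change there was −0.29 (unadjusted p = 0.0783, limma adjusted p = 0.557). Gata2 encodes a zinc finger factor of gonadotropes and thyrotropes, and its region 4.05 kb upstream (chr6:88189561-88190239) had 3.61 and 3.18 against 3.67 and 3.68. Both activin densities were above both vehicle densities, with a centred log2 change of −0.16 (unadjusted p = 0.139, limma adjusted p = 0.625). Nr0b1 encodes DAX-1, a repressor of SF-1. Its region on chromosome X, 4.49 kb upstream, had peak folds over the caller's background of 3.94 and 3.46 with vehicle against 4.12 and 3.90 with activin, as deposited by the authors, and no read number, since the quality reports count autosomal reads.

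The 3 regions whose nearest gene was the pseudogene Gm13903 lay 59.8, 67.1 and 90.3 kb upstream of the RefSeq start of Fshb, which was not the nearest gene of any region. Their median-centred log2 changes were 0.30, 0.22 and −0.10, with unadjusted limma p of 0.033, 0.115 and 0.445, and adjusted p of 0.498, 0.604 and 0.822.

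In the other lists the share of named genes next to a region was 0 to 12.5%, beside 2.64% of all named genes. Among the pituitary transcription factor genes, Isl1, which encodes a LIM homeodomain factor, had regions 12.5 and 15.7 kb downstream. The more distant (chr13:116293428-116294311) had a density of 2.48 and 1.94 with vehicle against 3.10 and 3.43 with activin, with both activin densities above both vehicle densities (log2 change 0.30, SE 0.13, unadjusted p = 0.0473, limma adjusted p = 0.523). The change was 0.19 without activin library 2 (unadjusted p = 0.296) and 0.21 without vehicle library 2 (unadjusted p = 0.196). Of 17 BMP pathway and Id genes, only Id2 had a region. Of 28 activin and TGFβ pathway genes, only Skil, a SMAD corepressor, had one, with 4, 27, 9 and 2 high-quality reads in vehicle libraries 1 and 2 and activin libraries 1 and 2. Rgs2, a regulator of G protein signalling, was the 1 of 19 GnRH receptor signalling genes with a region, Chga and Snap25 the 2 of 19 secretory genes, Hlf the 1 of 15 clock genes and Ghrhr, the growth hormone-releasing hormone receptor, the 1 of 10 genes of other pituitary lineages. None of the 6 steroid hormone receptor genes had one.

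Regions of this kind seldom stood next to each other. When regions at most 12.5 kb apart were joined, 104 of the 1028 (10.1%, 95% Wilson interval 8.42 to 12.1%) fell into 50 chains, of which 46 held 2 regions and 4 held 3. In 42 chains the regions had the same nearest gene. The share in chains depends on the gap: it was 4.47% at 5 kb and 17.2% at 25 kb. Counting any other region that was strong in all 4 libraries, 268 of the 1028 (26.1%, 23.5 to 28.8%) had a neighbour within 12.5 kb, against 9.29% of regions beyond 50 kb, 19.3% of intronic and 19.1% of promoter regions. A strong promoter lay within 10 kb of 110 (10.7%), against 8.09% of intronic regions and 1 of 366 regions beyond 50 kb (0.273%). The median gap to the nearest strong promoter was 72.8 kb, compared with 83.4 kb for intronic regions and 333 kb beyond 50 kb. The distance to an annotated start site was part of the choice of regions, so these gaps are given without a test.

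The chain that ended in the Nr4a1 region spanned 6.03 kb on chromosome 15 (chr15:101240806-101246833). Its other 2 regions had Grasp, which encodes a scaffold protein, as the nearest gene, with densities of 3.62 and 3.29 with vehicle against 4.63 and 3.82 with activin in one, and 5.75 and 4.53 against 6.87 and 5.57 in the other. The log2 changes of the 3 were 0.00917, 0.00306 and −0.06. A chain of 22.9 kb on the same chromosome (chr15:98971213-98994069) surrounded the start of the noncoding gene 4930578M01Rik, which had regions 14.2 and 2.36 kb upstream and 6.87 kb downstream. In the region 14.2 kb upstream, density was 2.66 and 2.5 with vehicle against 3.79 and 3.43 with activin, and the log2 change was 0.21 (SE 0.11, limma adjusted p = 0.561). The other 2 had log2 changes of −0.03 (2.36 kb upstream) and −0.14 (downstream), with limma adjusted p of 0.960 and 0.769. A chain of 5.92 kb on chromosome 7 (chr7:47015560-47021481) lay 7.42 to 12.8 kb upstream of Spty2d1, which encodes a histone chaperone. Its densities ranged from 3.75 to 6.77 over the 3 regions and 4 libraries, and the 2 that could be tested had log2 changes of −0.16 and 0.04.

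The gene with the most regions, 4, was Gm25888, a small noncoding RNA gene on chromosome 12, and 3 of them formed a chain of 15.6 kb (chr12:86787111-86802682). Densities in the 4 regions ranged from 1.78 to 4.18. The 3 that could be tested had log2 changes of 0.04, 0.05 and −0.16, with limma adjusted p of 0.926, 0.912 and 0.793. Next to Btg2, 2 of the 3 regions formed a chain of 7.0 kb. The upstream Btg2 region was in a chain of 10.9 kb with a region whose nearest gene was Gm38140. Klrb1c, a natural killer cell receptor gene, had 3 regions on chromosome 6, 13915 bp upstream and 25016 and 28226 bp downstream of its start. The most distant had the lowest densities of these 3, 0.886 and 1.20 with vehicle against 0.908 and 0.830 with activin, and the upstream one had 2.60 and 2.15 against 2.91 and 3.14. The microRNA gene Mir3965 had 3 regions with densities between 2.03 and 5.01.

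Peak significance and read number went apart in a set of these regions. The lowest −log10 q of the 4 libraries had a median of 7.87 (25th and 75th percentiles 6.04 and 11.7) and reached 64.9, and 336 regions (32.7%) had 10 or more in every library. Of the 1001 autosomal regions, 96 (9.59%, 95% Wilson interval 7.92 to 11.6%) held a mean of fewer than 50 high-quality reads, against 0.393% of promoter, 7.55% of intronic and 17.3% of intergenic regions beyond 50 kb. Of the 76 autosomal regions with a lowest −log10 q of 20 or more, 15 were in this low-read set, and 5 low-read regions held 0 high-quality reads in all 4 libraries. The low-read regions had a median merged length of 791.5 bp, and the others 932 bp. The quality report leaves duplicates and low-quality alignments out of the high-quality reads. Their part in these low numbers was not tested.

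Of the 10 regions with the highest lowest-of-4 −log10 q, 7 belonged to the low-read set. The highest, with the pseudogene Gm18900 as its nearest gene (chr1:169562607-169563038), had a −log10 q of 74.5, 64.9, 66.1 and 73.6 in vehicle libraries 1 and 2 and activin libraries 1 and 2, and 8, 68, 11 and 5 high-quality reads. The region 25.5 kb upstream of Tubb2a, a tubulin gene (chr13:34102965-34104038), had a −log10 q of 61.0, 79.9, 67.3 and 57.7 and 9, 8, 12 and 7 reads over more than 1 kb. Next to Tmem18 (chr12:30578570-30579096) the reads numbered 16, 11, 5 and 22, and at the major urinary protein pseudogene Mup-ps1 (chr4:60081719-60081883), the shortest region at 165 bp, they numbered 3, 4, 9 and 12.

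In the same top 10, the region 26.1 kb downstream of the pseudogene Gm11809 (chr4:8647099-8647932) had 842 and 849 reads with vehicle against 1420 and 1036 with activin. The region 26.5 kb upstream of Scd2, a fatty acid desaturase gene (chr19:44266631-44267682), held 1229, 1453, 2325 and 1596, and the Btg2 region 1049, 1164, 2018 and 1308. These 3 had densities of 6.27 to 10.3, where the Gm18900, Tubb2a, Tmem18 and Mup-ps1 regions had at most 0.712.

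**Figure D3:**
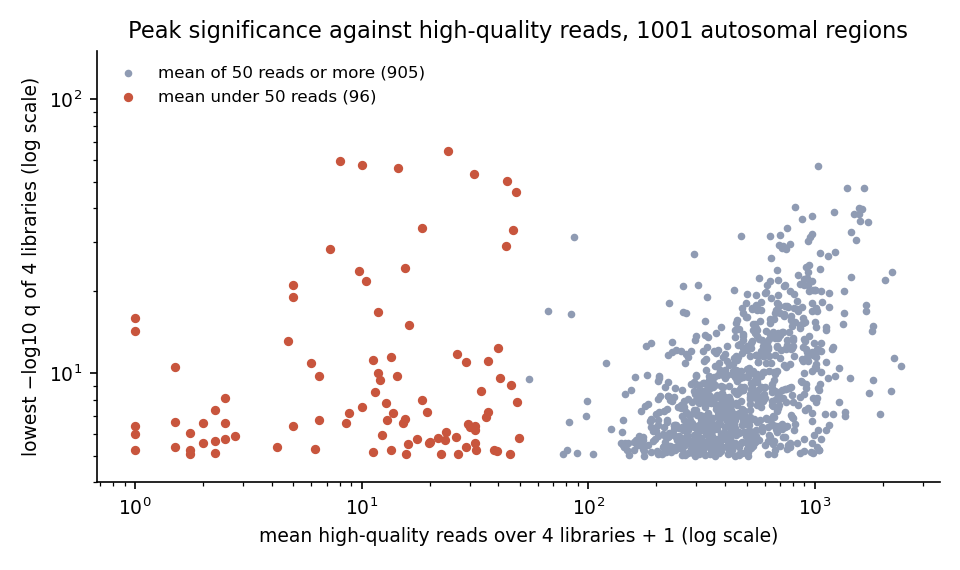
Lowest −log10 q of the 4 libraries (y axis, log scale) against the mean number of high-quality reads plus 1 (x axis, log scale), 1 point per autosomal intergenic region within 50 kb. The 96 regions with a mean under 50 reads stand apart on the left and include 15 of the 76 regions with a −log10 q of 20 or more.

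The regions were more densely read than the intergenic regions farther away and less densely than promoters. Their median density was 3.02 and 2.66 in the vehicle libraries, against 3.39 and 3.21 in those given activin. Promoter regions had 3.56, 3.06, 4.10 and 3.92, intronic regions 2.91, 2.55, 3.27 and 3.14, and regions beyond 50 kb 2.25, 2.06, 2.55 and 2.49. On the log2 scale the median was below that of promoters by −0.240 ± 0.0325 (SD over 4 libraries), above that of intronic regions by 0.0513 ± 0.0105 and above that of regions beyond 50 kb by 0.371 ± 0.0193. Each difference had the same sign in 4 of 4 libraries. The exact sign-flip permutation p was 0.13 for each (2-sided; 0.13 after Benjamini-Hochberg adjustment over 6 comparisons), the smallest that 4 libraries allow. With means of log2 values in place of medians the difference from intronic regions was −0.0104, so its direction depends on the summary. The other differences kept their direction but moved: from promoters to −0.636 with means and −0.117 among regions with a −log10 q of 10 or more, and from regions beyond 50 kb to 0.659 and 0.118. All 4 classes were chosen on the same peak significance.

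Their intervals were shorter than those of promoters. The median interval was 624 and 688 bp with vehicle against 814 and 730 bp with activin, against 845, 885, 998 and 937 bp for promoter regions. The log2 differences were −0.364 ± 0.0586 from promoters, −0.172 ± 0.0116 from introns and −0.0544 ± 0.0182 from regions beyond 50 kb (SD over 4 libraries), each negative in 4 of 4 libraries and with an exact sign-flip p of 0.13. The last of these was 0.00133 among regions with a −log10 q of 10 or more and −0.026 among regions with a mean of 50 or more reads. Among the intergenic regions themselves, those at most 10 kb from the start site had a median density of 3.21, 2.83, 3.62 and 3.47, and those at 10 to 50 kb had 2.89, 2.53, 3.23 and 3.11.

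**Figure D4:**
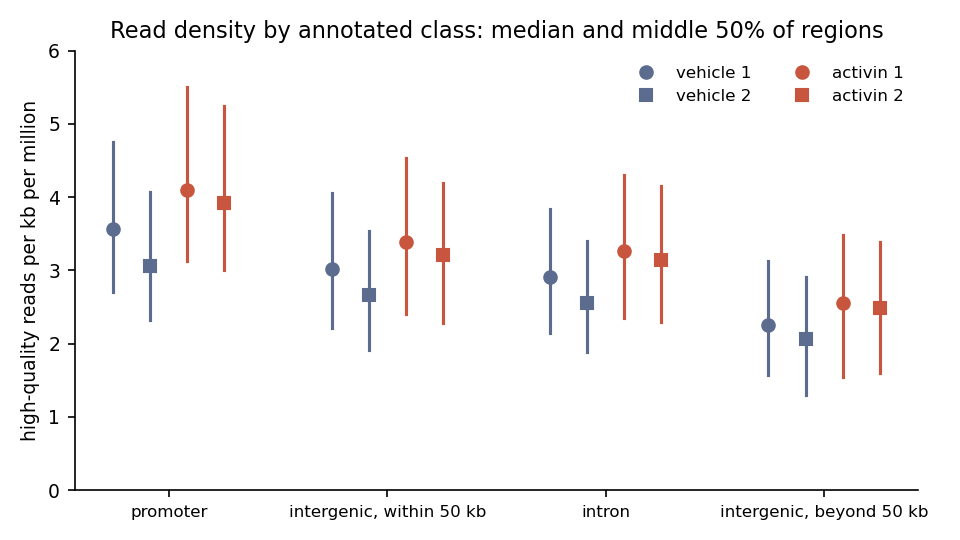
Median read density (points) and middle 50% of regions (lines) in high-quality reads per kb, scaled for depth (y axis) for 4 annotated classes of regions strong in all 4 libraries (x axis), in each vehicle and activin library. Intergenic regions within 50 kb lie below promoters and above intergenic regions beyond 50 kb in every library.

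Both activin libraries placed more of their reads in these regions than both vehicle libraries. The share of high-quality reads was 0.211% and 0.198% with vehicle against 0.307% and 0.264% with activin, or 0.204% ± 0.00954 and 0.285% ± 0.0300 (SD, n = 2). The difference was 0.0812 percentage points, with an exact permutation p of 0.33 (2-sided), the smallest that 2 against 2 allows. The called intervals covered 708 and 769 kb with vehicle against 899 and 827 kb with activin, and the mean density over them was 2.98, 2.57, 3.41 and 3.20. Enrichment of reads at start sites over the whole library was also higher in both activin libraries (3.12 and 3.04) than in both vehicle libraries (2.72 and 2.48). Its part in the share was not tested.

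Whether single regions responded to activin was tested on log2((high-quality reads + 1) per kb), centred on the library median, in all 13871 autosomal regions with exactly 1 peak per library and a common part of at least 50%. This table held 728 of the 1001 autosomal regions described here, and 273 were left out of it, as were the 27 on chromosome X. limma called 0 of the 728 at an adjusted p under 0.05, and 0% of all 13871, and the smallest adjusted p of the 728 was 0.295. At an unadjusted p under 0.05, 39 of the 728 were higher with activin (5.36%; 3.62% of all regions) and 43 were lower (5.91%; 5.91% of all). Without activin library 2, 25 were higher at that level. On the centred values, both activin libraries were above both vehicle libraries in 145 regions (19.9%), against 20.9% of all regions, and below them in 161 (22.1%), against 20.5%. The median log2 change was −0.0156, and −0.00489 over all regions, and the middle 90% of the 728 lay between −0.54 and 0.32. An absolute change of 0.5 or more was found in 51 (7.01%; 6.42% of all).

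The scaling set how many regions were called. With each library scaled by its depth and not by its median region, the median log2 change was 0.269 over all regions and 0.258 over the 728. On that scale limma called 46 of the 728 higher (6.32%; 3.99% of all regions) and 0 lower (0%; 0.375% of all), with 225 and 5 at an unadjusted p under 0.05. In what follows, log2 changes are relative to the library median and densities are on the depth scale.

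The region with the smallest p was 23.4 kb downstream of the start of Rbfa, a gene of mitochondrial ribosome assembly, on chromosome 18. Its density was 4.47 and 3.58 with vehicle against 7.46 and 6.56 with activin, without overlap. The change was 0.53 on the log2 scale (SE 0.10), with a limma p of 0.000441 before and 0.295 after adjustment. Next came the regions near Mmp27, a matrix metalloproteinase gene (2.17 and 2.07 against 3.38 and 3.54; log2 change 0.43), and Slc36a4, an amino acid transporter gene (3.41 and 3.09 against 5.19 and 4.75; 0.34). The regions near the small RNA genes Gm23329 and Gm25064 and the pseudogene Gm11830 had log2 changes of 0.64, 0.32 and 0.37. In all 6 both activin densities were above both vehicle densities, and the adjusted p of the last 5 was 0.405 to 0.412. Without division by the interval length, the Mmp27 and Slc36a4 values were −0.26 and −0.32, and those near Gm23329 and Gm25064 were 0.14 and 0.13. The Gm23329 value was 0.35 without vehicle library 2 and 0.92 without vehicle library 1.

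The lower regions with the smallest p had log2 changes of −0.49 (near Zfp14, a zinc finger gene), −0.36 (Rph3al, of exocytosis), −0.44 (Tcf20, a transcriptional coregulator gene), −0.44 (Ptma, prothymosin), −0.38 (Cryaa, a lens crystallin gene) and −0.34 (1700007L15Rik, noncoding), all with a limma adjusted p of 0.405. At Zfp14 the density was 3.93 and 3.56 with vehicle against 3.69 and 2.82 with activin, and the interval was 610 and 659 bp against 965 and 1138 bp, so reads were counted over a longer stretch with activin. Over the 43 lower regions, 33 had a longer mean interval with activin (median log2 ratio of lengths 0.361), against 17 of the 39 higher regions (−0.0172) and 578 of all 728 (0.139). Without division by length the Zfp14 and Rph3al values were 0.09 and 0.23, and those near Tcf20, Ptma, Cryaa and 1700007L15Rik were −0.03, −0.16, −0.15 and −0.06. On the depth scale the 6 values lay between −0.22 and −0.07.

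Near genes of the lists, the region 2.71 kb upstream of Id2 had the smallest p. Id2 (ENSMUSG00000020644) encodes an inhibitor of helix-loop-helix factors and is a known target of BMP signalling through SMADs. At chr12:25098539-25099064 its density was 3.24 and 2.72 with vehicle against 4.76 and 4.22 with activin. Both activin densities were above both vehicle densities, with a change of 0.32 on the log2 scale (SE 0.10) and a limma p of 0.0104 before and 0.428 after adjustment. The Ghrhr region (chr6:55396226-55397357), which holds the 6430584L05Rik start, had 3.77 and 3.56 against 5.66 and 5.17, with a log2 change of 0.29 (SE 0.09, unadjusted p = 0.0132, limma adjusted p = 0.431), or 0.17 without division by length.

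Regions that held a RefSeq gene start had higher activin values than the rest, a split made after seeing the data. Of 66 tested regions with a start, both activin libraries were above both vehicle libraries on the centred values in 28 (42.4%) and below in 9 (13.6%), against 117 (17.7%) and 152 (23.0%) of the 662 without a start. The strong promoter regions, 5156 in the table, had 28.0% above and 13.3% below. Median log2 changes were 0.08 with a start, −0.0231 without and 0.0396 for promoters. The start-site enrichment of the libraries, given above, moved the same way, and its part in this difference was not tested. Among all regions described, those with a start had a median lowest −log10 q of 10.5, and those without had 7.77. Their median merged lengths were 1029 and 907.5 bp. The part of peak significance and length in the difference was not tested either. The unadjusted p was under 0.05 for 7 higher and 3 lower regions with a start, and the adjusted p was under 0.05 for none.

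Examples with a start include the region with Zfp983 (chr17:21650055-21650918), whose density was 3.48 and 3.38 with vehicle against 5.42 and 4.88 with activin (log2 change 0.31, SE 0.10, unadjusted p = 0.0112, limma adjusted p = 0.428). Its neighbour with the Gm10509 start (chr17:21679371-21680266) had 3.85 and 2.97 against 5.28 and 5.09 (0.34, SE 0.10, unadjusted p = 0.00872, limma adjusted p = 0.413). At Tyk2 (chr9:21130899-21131718) it was 5.48 and 5.05 against 7.76 and 7.19 (0.23, SE 0.09, unadjusted p = 0.0308, limma adjusted p = 0.495). The densities of the groups did not overlap in these 3. At Cpeb4 (chr11:31870165-31871494), with 3.87 and 2.42 against 4.41 and 4.14, they did not overlap either, but vehicle library 2 lay far below vehicle library 1 and the log2 change of 0.21 had an SE of 0.15. At Zfp14, whose own RefSeq start lies in its region, the value was negative, as given above.

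**Figure D5:**
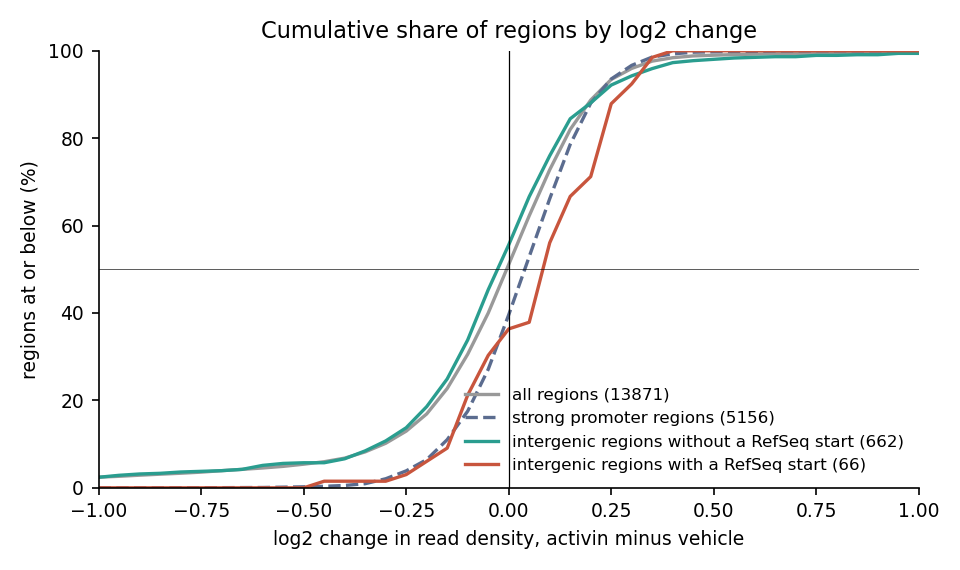
Cumulative share of regions (y axis, percent) by log2 change in read density, activin minus vehicle, after centring on the library median (x axis), for all tested regions, strong promoter regions, and intergenic regions within 50 kb with and without a RefSeq gene start. The line for the 66 regions with a start crosses 50% at a higher value than that of the 662 without, with medians of 0.08 and −0.0231.

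At the edges of the choice, the weakest regions kept had a lowest −log10 q of 5.00 (1700003L19Rik, activin library 2), 5.01 (Btg4, vehicle library 1) and 5.01 (Sbk2, vehicle library 1). Just outside, the regions near Gm20203, Fignl1 and Txn-ps1 had a peak of 5.0 after rounding, but under the threshold, in 1 vehicle library and a strong peak in the other 3 libraries. The most distant regions kept lay 49759 bp from Gm23662, 49490 bp from Cryaa and 49187 bp from Mepe, and the nearest ones left out lay 50023 bp from Nostrin, 50024 bp from 1700012I11Rik and 50124 bp from Gm5815.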

How the data were processed

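ATAC-seq peaks of 2 vehicle and 2 activin libraries were used, grouped by the sample titles. Bowtie2, MACS2, HOMER, GRCm38 and mm10 are named in the submitters' processing notes, without versions or settings. The deposited peak lists give, per peak, a score (10 times the −log10 q, cut to a whole number), a fold over the peak caller's background and the −log10 p and −log10 q as the authors' caller wrote them. HOMER's annotation gives the feature, nearest gene and distance in bp, per the file headers. Read numbers come from deposited ataqv 1.3.1 reports, which count high-quality autosomal alignments per peak.

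Strong peaks were merged and the regions selected as described above. Positions are counted from 1. Density changes were tested with limma 3.58.1 in R 4.3.3 (lmFit, eBayes with a trend, no block, pseudocount of 1 read) and Benjamini-Hochberg adjustment at 0.05 over 13871 regions. This fit was also run on simulated, normally distributed log values, with means from these libraries and the spread that the fit itself estimated. Such data meet the assumptions of the fit by design, so that run is not used as support here. With the added read, changes at low read numbers come out too small. Intervals are 95% Wilson intervals and cover counting error only.

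The regions and gene lists were chosen with earlier results of these data known. Regions were named by rule: the 10 with the highest lowest-of-4 −log10 q, 6 per direction with the smallest p, the 8 genes with the most regions, 5 chains, those next to listed genes, and those at each threshold. Regions with a RefSeq start were named after their values were seen. Of 944 nearest genes, 746 (79.0%) were in the RefSeq table. Alternatives changed the thresholds, scaling, length division, overlap, filters, block and libraries.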

Additional observations from a re-analysis of the deposited data

How the results depend on the processing

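The number of regions was 2041 at a −log10 q of 3 or more, 336 at 10 or more and 1043 to 1254 when a library was left out. None of the regions described passed the adjusted threshold in any fit run but that scaled to all high-quality reads, which called 46. Same-numbered libraries' deviations from their group means had a correlation of −0.0252, which cannot settle whether the replicate numbers pair the libraries. The replicate block gave 0 adjusted calls. At an unadjusted limma p under 0.05 it had 39 regions higher and 47 lower, as against 39 and 43. Scaled to all high-quality reads these were 225 and 5. The higher count was 14 with a common part of 75%, where 266 regions were tested, 25 of 731 with regions merged from strong peaks only (the cause was not tested), and 25 to 43 when a library was left out, with the low end without activin library 2. The lower count was then 33 to 54. The share of reads differed by 0.0599 to 0.102 percentage points without a library. Among regions with a −log10 q of 10 or more the length difference from regions beyond 50 kb was 0.00133, and with means of log2 values the density difference from introns was −0.0104; the cause was not tested. The share in chains was 4.47% with a gap of 5 kb, 17.2% with 25 kb, 2.98% among regions with a −log10 q of 10 or more, and 10.2 to 12.7% without a library, the highest without vehicle library 2. Leaving a library out of the chains and the upstream share, and keeping only regions with a mean of 50 reads, were chosen after seeing the data. The last changed no direction between classes.

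Of 318 alternative values for 31 named regions, 278 kept their sign. Scaled to all high-quality reads, which adds about 0.27 to every value, signs turned at Btg2 (0.165, 0.17 and 0.218), Nr4a3 (0.205), Fos (0.247 and 0.165), Nr4a1 (0.218), Hlf (0.0271), Egr1 (0.269), Gata2 (0.115), Egr3 (0.13), Dusp1 (0.0445) and Chga (0.106). Without length division they turned at Mmp27 (−0.259), Slc36a4 (−0.317), Zfp14 (0.0852), Rph3al (0.234), Btg2 (0.0978, 0.121 and 0.00733), Fos (0.0269 and 0.139), Nr4a1 (0.108), Hlf (0.0675), Egr1 (0.0447), Fosb (−0.0587) and Egr3 (0.338). Fosb, near 0, was −0.0727 with a common part of 75%, −0.023 with strong peaks only and −0.00337 with a mean of 50 reads. When a library was left out, signs turned at Nr4a3 (−0.155 to 0.0183), Fos (−0.22 to 0.167), Egr1 (−0.214 to 0.205), Btg2 (−0.196 to 0.084), Fosb (−0.0394 to 0.0432), Egr3 (−0.382 to 0.085) and Dusp1 (−0.483 to 0.0248). Any change at the 96 low-read regions rests on a mean of under 50 reads per library.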
